A study of Mus musculus with 3 samples.

Results

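The 28 genes described here were high in RNA from the chromatin of mouse macrophages. Yet in an alignment-based quantification almost none of their signal was assigned to transcripts annotated as keeping an intron. In a second quantification, made directly from the reads, 13 of the 28 had over 5% in such transcripts in every library. The genes were selected on measured values of the alignment-based quantification. A gene had to have at least 1 transcript of type protein_coding and 1 of type retained_intron, at least 20 TPM in each library, and at most 5% of its TPM in retained_intron transcripts in each library. TPM is a length-corrected abundance that adds up to the same total in every library. Of 55536 annotated genes, 9120 had both transcript types and 2570 of these reached the level. Leaving out 31 genes with symbols beginning Rpl or Rps gave 2539 eligible genes, of which 28, or 1.1%, met the share limit. The other 2511 eligible genes serve as the comparison. Since the share and the level chose the genes, both are given as descriptions with no test.

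The libraries came from bone-marrow-derived macrophages (BMDM) of the C57BL/6J strain, which are primary cells grown from marrow. All 3 libraries form 1 group. The cells received 100 ng/ml of Lipid A, the membrane anchor of bacterial lipopolysaccharide, over 12 h of pre-treatment, spent another 12 h without it, and were harvested at 0 minutes of restimulation. No untreated group was analysed here, so no value is a response to Lipid A. The labels name 3 biological replicates but 1 donor record, with no word on separate mice, so the spread between libraries may be partly technical. Input RNA was 1 µg, 250 ng and 500 ng in replicates 1, 2 and 3.

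Expected counts over gene rows were 11802407, 17201281 and 19428384 in replicates 1, 2 and 3. All 10 macrophage markers reached 1 TPM in each library, with summed levels of 854, 1101 and 990 TPM. Replicate 3 stood apart in 10 fibroblast and stromal markers, whose summed level was 1.3, 2.57 and 590 TPM, with 1, 0 and 10 of the 10 markers at 1 TPM or more. Summed neutrophil, T cell and B cell markers did not exceed 1.21 TPM in any library. Erythroid markers summed to 19.4, 17.9 and 9.81 TPM, with 1 of 5 at 1 TPM or more in each. Their part in the results below was not tested. With the limits asked of replicates 1 and 2 alone, which can only add genes, 31 genes met them.

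As background, the chromatin fraction is rich in RNA that is still being made or is held in the nucleus, so unspliced introns are common in it. Splicing removes an intron between a 5′ splice site, which nearly always begins with GT, and a 3′ splice site, which nearly always ends with AG. Gene annotation gives the type retained_intron to a transcript model that holds sequence elsewhere treated as intron, and such a model need not hold a whole intron. Reads that lie in exons shared by several models are divided among them by the quantification. Only sequence particular to a model marks it directly.

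The first question was what the retained_intron models of these genes contain. The 28 genes have 35 such models, and 26 of the genes have at least 1 stretch outside every coding exon. In all there are 38 such stretches, counting a stretch again where models share it. Of these, 25 lie just before the 5′ start of a coding exon and 7 just past the 3′ end of one. Another 4 join coding exons on both sides, and 2 are exons of their own. Of the 29 stretches that end at an annotated 3′ splice site, all 29 end in AG, and 24 run from the first base of the model. Of the 11 that begin at an annotated 5′ splice site, all 11 begin with GT, and 7 run to the model's last base. Most stretches are therefore parts of an intron at an end of a model.

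The shortest stretch, in Vps8-209, has 4 bases. Some of the other short stretches are printed to show how little separates these models from the coding transcript. The sequences are from the GENCODE M21 transcripts on mm10, written 5′ to 3′ in the sense of the gene. Capitals mark the bases outside every coding exon and lower case marks the adjoining coding exon. Coordinates give the capitals alone.
Plxna1-206, chr6:89321070-89321089, minus strand: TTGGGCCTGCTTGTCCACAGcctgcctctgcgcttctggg
Mast3-207, chr8:70781375-70781388, minus strand: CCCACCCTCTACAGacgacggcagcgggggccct
D17Wsu92e-204, chr17:27786058-27786070, minus strand: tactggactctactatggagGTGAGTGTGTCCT
Washc4-203, chr10:83579468-83579481, plus strand: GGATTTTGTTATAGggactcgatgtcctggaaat
Washc4-204, chr10:83585793-83585817, plus strand: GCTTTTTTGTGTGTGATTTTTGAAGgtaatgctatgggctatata
Dnajc19-205, chr3:34080158-34080180, minus strand: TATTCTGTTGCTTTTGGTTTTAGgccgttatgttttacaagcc
The models of Plxna1, Mast3 and Dnajc19 start 20, 14 and 23 bases before a 3′ splice site and read into the exon, and those of Washc4 start 14 and 25 bases before one. The D17Wsu92e model runs 13 bases past a 5′ splice site and ends there.

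Whole coding introns occur in retained_intron models of only 2 of the 28 genes, 4930404N11Rik and Ccdc167. The intron of 4930404N11Rik is the shortest, at 74 bases with 64.9% G or C, and is shown whole in capitals with 20 bases of exon on each side.
4930404N11Rik-202, chr10:81364668-81364741, minus strand: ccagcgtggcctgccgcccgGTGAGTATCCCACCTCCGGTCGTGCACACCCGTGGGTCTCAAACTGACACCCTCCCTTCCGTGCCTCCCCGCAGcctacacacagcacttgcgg
No TPM was assigned to either of the 2 models that hold it in any library. Ccdc167-207 holds introns of 801 and 165 bases, and received 0, 2.04 and 0% of its gene's TPM. The splice sites of the shorter one (chr17:29705324-29705488, minus strand) are given with intron bases in capitals, beside introns of 3 eligible genes from the other end of the range, those with the highest retained-intron share that hold a kept intron of at most 300 bases.
Ccdc167 5′ site: cagGTAATG
Ccdc167 3′ site: TGTAAACTCCTTCCCCACAGgag
Lilrb4a 5′ site (chr10:51491719-51491860, plus strand): cagGTGAGT
Lilrb4a 3′ site: CACTGTCCCTTGTATTCTAGgag
Slc27a1 5′ site (chr8:71580702-71580766, plus strand): cagGTATGT
Slc27a1 3′ site: CACCGCTGCCCTCTCTCTAGgga
Zfp326 5′ site (chr5:105886223-105886316, plus strand): gagGTCTGG
Zfp326 3′ site: TTCTTTTTAAACTCTTATAGggc
Lilrb4a, an inhibitory immunoglobulin-like receptor, had 99.7, 99.9 and 99.7% of its TPM in retained_intron models in replicates 1, 2 and 3. For Slc27a1, a fatty acid transporter, the shares were 100, 98.7 and 98.4%, and for the zinc finger gene Zfp326 they were 97.6, 94.3 and 93.6%. These shares cover all retained_intron models of a gene, not only those with the printed intron. Lilrb4a-209, which holds the printed intron, took 31.77, 30.17 and 31.48% of its gene's TPM. Slc27a1-203 took 40.22, 39.53 and 35.99%, and Zfp326-208 took 20.51, 24.96 and 21.39%. Any other model with the same intron is not counted in these values. All 4 introns begin with GT and end with AG.

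Across the 28 genes, the retained_intron models hold a median of 111.5 bases outside coding exons, against 1805 in the other 2511 eligible genes. This annotation property was not used by the selection. Fewer than 200 such bases were present in 20 of 28 genes and in 4.62% of the others. A single retained_intron model was annotated in 23 of 28 genes and in 23.1% of the others. No whole intron was kept in 26 of 28, against 46.5% of the others. For the 3 whole introns of these genes the median length was 165 bases, against 291 for 3297 introns of the others. The coding transcript with the highest mean TPM had a median of 11.5 introns in the 28 genes and 11 in the others.

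**Figure D1:**
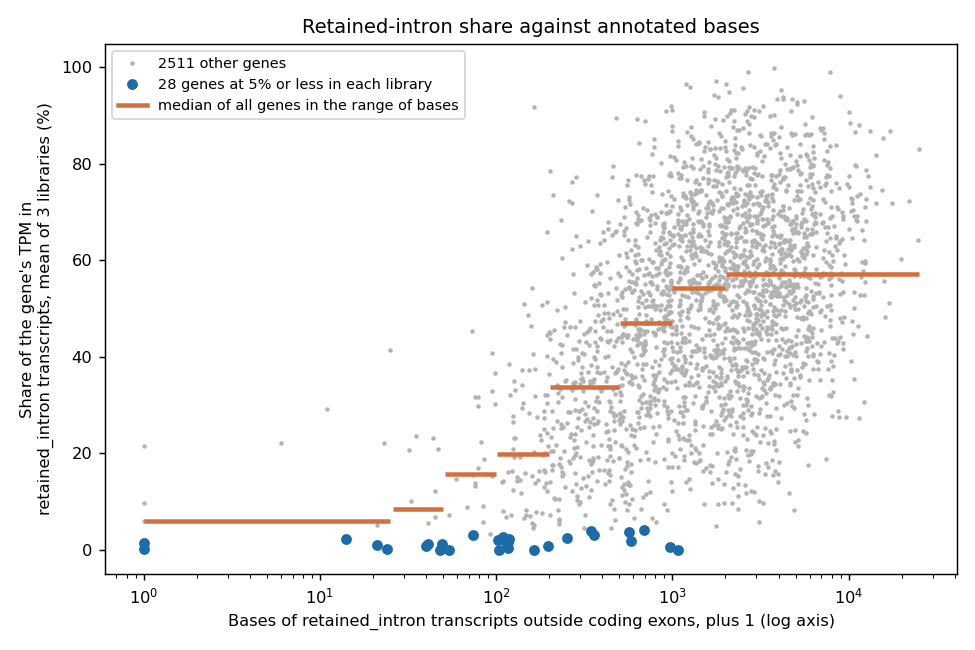
Each point is 1 of 2539 eligible genes, plotted by the bases of its retained_intron models outside coding exons (log axis, plus 1) and by the mean share of its TPM in those models over 3 libraries (percent). The 28 selected genes are blue, lie at 5% or less by the rule, and are mostly on the left, with 20 under 200 bases. Orange bars are medians of all genes in a range of bases.

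Over all eligible genes, the share rose with the bases of the models outside coding exons. Among 13 genes with 0 to 24 bases the median share was 7.77, 10.4 and 4.94% in replicates 1, 2 and 3, and 5 of the 13 were among the 28. Among 1158 genes with 2000 or more bases it was 57.4, 58.7 and 55.5%, and none was. Spearman's correlation over the 2539 genes was 0.411 between bases and mean share, and 0.573 between the number of models and mean share. These are descriptions across genes that share libraries and an annotation. Few bases did not fix a low share. Inpp5d, a lipid phosphatase gene picked out after its values were seen, has 24 such bases and shares of 38.5, 46.6 and 39.1%.

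In 5 of the 28 genes the models hold 500 bases or more. March1, encoding a membrane ubiquitin ligase that removes MHC class II and CD86 from the cell surface, has the longest stretch, 1073 bases past a 5′ splice site, and 0 TPM was assigned to it in every library. The intronic stretch of Plgrkt is 691 bases, and its model received 9.36, 8.19 and 7.42 TPM, or 4.45, 4.38 and 3.7% of the gene. The 583 bases of Ptp4a2-204 lie outside the span of the gene's transcripts that reached 1 TPM, and Cep85 has 567 bases over 3 models. Ccdc167 has 966. At the other extreme, the models of Qk and Cog5 hold no base outside coding exons.

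The counts behind these shares were small. The median of expected counts in a gene's retained_intron models was 2.3, 2.8 and 2.5 in replicates 1, 2 and 3, and 16 of the 35 models had fewer than 3 counts in every library. In 5 genes all models were listed at 0 in all libraries. The highest of them were 4930404N11Rik, with 825, 1313 and 1076 expected counts in the gene, Arhgef10l, with 351, 671 and 636, and March1, with 1026, 1223 and 1113. A count of 0 allows up to 3 counts, which is 0.364, 0.229 and 0.279% of the gene's counts for 4930404N11Rik and 0.855, 0.447 and 0.472% for Arhgef10l. These are shares of counts and do not bound the share of TPM that the selection used. In TPM, 3 counts weigh more in a short model, and that limit was not computed. The limits in counts cover counting error only, not the division of shared reads. Vps8 and Grtp1 were the other two.

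Levels over the 28 genes ran from 20.1 TPM in Dnajc19 to 325 TPM in Oas2. The median of log2(TPM + 1) was 5.4, with an SD of 0.122 between the medians of the libraries. In TPM the median was 35.5, 41.6 and 40.8 in replicates 1, 2 and 3, beside 44.0, 50.6 and 48.6 in the other eligible genes.

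**Figure D2:**
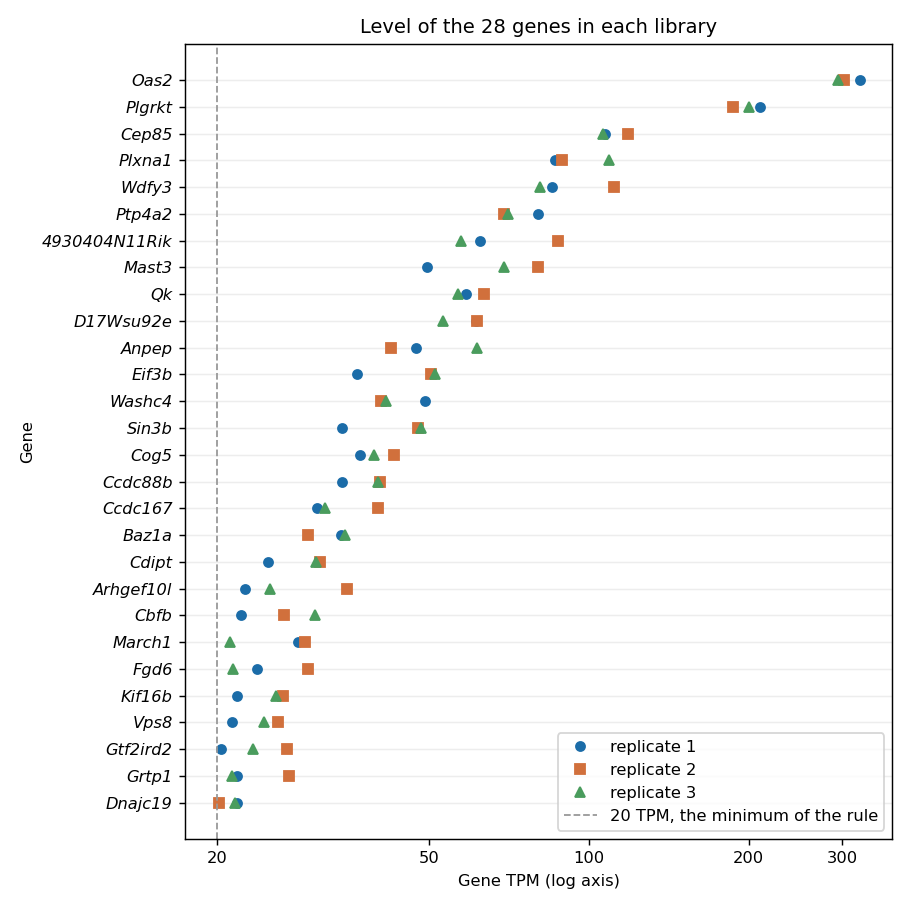
Gene TPM (log axis) of the 28 genes in each library, 1 symbol per replicate, ordered by mean. The dashed line is the 20 TPM minimum of the selection. Oas2 and Plgrkt lie above 180 TPM in all 3 libraries.

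Genes of immune defence and the cell surface included the highest. Oas2, an interferon-induced enzyme that makes 2-5A in response to double-stranded RNA, stood at 325, 302 and 295 TPM in replicates 1, 2 and 3, with retained-intron shares of 3.41, 2.43 and 3.41%. Plgrkt, a plasminogen receptor, was at 210, 187 and 201 TPM. In both, the 3 libraries lay within a narrow range in TPM. In the TMM-normalized CPM explained below, the log2 ratio of replicate 2 over 1 was -0.5 for Plgrkt and -0.331 for Oas2. Anpep, the aminopeptidase CD13, was at 47.4, 42.5 and 61.7 TPM and was highest in replicate 3. In the read-based quantification explained below, Anpep was at 164, 95.2 and 161 TPM and was highest in replicate 1. March1 was at 28.4, 29.2 and 21.1 TPM, lowest in replicate 3. Plxna1, a receptor for semaphorins, was at 86.6, 89.2 and 109 TPM. D17Wsu92e, a regulator of inflammatory signalling, was at 61.3, 61.5 and 53.1 TPM.

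By their known roles, and not from a gene list, some of the genes act in membrane traffic or autophagy. The share of all eligible genes with such roles was not counted, so no theme is drawn. A separate list of membrane traffic genes, with 58 eligible, held none of the 28. The highest of the genes placed here was Wdfy3, a scaffold that delivers protein aggregates to autophagy, at 85.3, 112 and 80.8 TPM. Washc4, a subunit of the WASH complex that drives actin assembly on endosomes, was at 49.2, 40.6 and 41.5 TPM. Cog5, of the Golgi tethering complex COG, was at 37.1, 43.0 and 39.5 TPM. Of these, in TPM, Wdfy3 and Cog5 were highest in replicate 2 and Washc4 in replicate 1. In TMM-normalized CPM, explained below, Cog5 was highest in replicate 1, at 103.9, 100.9 and 95.5. Kif16b, a kinesin of early endosomes, Vps8, of the endosomal tether CORVET, and Grtp1, a protein with a Rab GTPase-activating domain, lay between 21.3 and 27.3 TPM in every library.

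Genes of small GTPases, the cytoskeleton and signalling formed another group. Cep85, a centrosomal protein, was at 107, 119 and 106 TPM. Ptp4a2, a membrane-bound tyrosine phosphatase, was at 80.4, 69.4 and 70.3 TPM. Mast3, a microtubule-associated serine/threonine kinase, was at 49.5, 80.4 and 69.3 TPM and was lowest in replicate 1. It had the largest SD of log2(TPM + 1) of the 28, at 0.35. Arhgef10l, a guanine nucleotide exchange factor, followed with an SD of 0.32, from 22.5, 35.1 and 25.1 TPM. Ccdc88b, a regulator of myeloid and T cell function, was at 34.3, 40.4 and 40.2 TPM. Fgd6, an exchange factor for Cdc42, was at 23.8, 29.6 and 21.4 TPM.

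Nuclear and RNA-handling genes included Qk, an RNA-binding protein that controls splicing in macrophages and other cells, at 58.7, 63.5 and 56.9 TPM. Sin3b, a scaffold of histone deacetylase complexes, was at 34.3, 47.6 and 48.3 TPM (SD of log2(TPM + 1) 0.27). Both Sin3b and Eif3b, a translation initiation factor subunit at 36.6, 50.5 and 51.4 TPM, were lowest in replicate 1. Baz1a, a chromatin remodelling subunit, was at 34.2, 29.6 and 34.8 TPM. Cbfb, the partner of RUNX transcription factors, was at 22.1, 26.7 and 30.6 TPM. Gtf2ird2, related to the transcription factor TFII-I, was at 20.3, 27 and 23.3 TPM.

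The remaining 4 genes were metabolic or little characterised. Cdipt, the enzyme that makes phosphatidylinositol, was at 24.9, 31.1 and 30.7 TPM. Dnajc19, a co-chaperone of mitochondrial protein import, was at 21.8, 20.1 and 21.6 TPM. In TPM this was the narrowest spread of the 28 (SD of log2(TPM + 1) 0.06). In TMM-normalized CPM, explained below, Dnajc19 was at 38.1, 30.1 and 32.1, so the narrow spread holds for TPM only. A pseudogene, Dnajc19-ps, can share its reads. Ccdc167 was at 30.8, 40.1 and 31.9 TPM. The little-known 4930404N11Rik was at 62.3, 87.5 and 57.5 TPM, with an SD of log2(TPM + 1) of 0.32.

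Several genes overlap others on the opposite strand, and no source used here gives a strand setting, so reads of both cannot be told apart. All 2750 bases of 4930404N11Rik lie inside Mfsd12, which was at 77.2, 106 and 83.7 TPM, and both genes were highest in replicate 2. Ccdc167 shares 18623 bases with Cmtr1, Dnajc19 shares 14303 with Fxr1, Cog5 shares 11377 with Hbp1, Gtf2ird2 shares 4303 with Ncf1 and Grtp1 shares 3317 with Lamp1. March1 shares 3355 bases with the antisense gene Gm15356, which was at 27.4, 23.99 and 20.97 TPM, close to March1 itself. Plxna1 shares 11308 bases with Gm26811, at 22.8, 22.9 and 25.3 TPM. In all, 14 of the 28 genes overlap an opposite-strand gene that reached 1 TPM in each library, and the levels of all 14 are uncertain for that reason. Such overlaps were not counted in the other eligible genes, so the count is not read as a trait of the 28.

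Close to the limits, Eif3b, Plgrkt and Cep85 were just inside 5%, with highest shares of 4.81, 4.45 and 4.36%. Just outside were 0610037L13Rik at 5.02%, Timm10b at 5.57% and Slc9a9 at 5.75%. For the level, Dnajc19, Gtf2ird2 and March1 were just inside, with lowest values of 20.1, 20.3 and 21.1 TPM. Ttc7, Cul3 and H2-DMa met the share limit but fell to 19.2, 16.3 and 15.9 TPM in their lowest library.

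The next question was whether a second quantification of the same reads assigned as little to these models. It was made from the reads without the alignment, and is not independent evidence. The median read-based share of the 28 genes was 5.16, 5.06 and 4.94% in replicates 1, 2 and 3, against 47.4, 48.7 and 46.6% in the others. In every library 12 of 28 were at 5% or less, beside 0.827% of all eligible genes, and 13 of 28 were above 5% in every library. The read-based share exceeded the alignment-based share in all libraries in 19 of 28, against 33.1% of the others. The 28 were chosen for a low alignment-based share, and 14 of them were at 0 in at least 1 library. This contrast therefore follows in part from the selection. Across all 2539 eligible genes the shares had a Spearman correlation of 0.856.

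Cep85 differed most between the quantifications. Its read-based shares were 56.0, 60.9 and 60.4%, and its alignment-based shares 2.81, 3.98 and 4.36%. Most of the difference lay in Cep85-204, a model of 308 bases, of which 131 are intronic. It received 114, 137 and 136 TPM read-based and 0, 1 and 0.73 TPM alignment-based. Cep85-203 also differed, at 17.6, 16.7 and 16.3 TPM read-based and 2.45, 1.97 and 3.33 TPM alignment-based. The effective length of Cep85-204, the number of positions where a fragment can start, was 133, 128.5 and 128.5 bases in the read-based table and 110, 71.2 and 81.7 bases in the alignment-based one. What part length had in the difference was not tested.

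Read-based shares were also high in Washc4, at 41.7, 43.9 and 44.2%, and in Cdipt, at 38.7, 35.7 and 35.3%. The Washc4 models are those shown above with 14 and 25 intronic bases, and Cdipt-208 has 101. Vps8 was listed at 0 in the alignment-based table and at 24.8, 25.9 and 23.3% in the read-based one. In Fgd6, with 117 bases, the read-based share was 22.8, 19.0 and 28.2%. These 4 genes and Cep85 were far above the 5% limit in every library. By contrast Qk, March1 and Grtp1 were at 0 in all libraries read-based, and Oas2 was at 2.64, 2.7 and 2.99%.

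**Figure D3:**
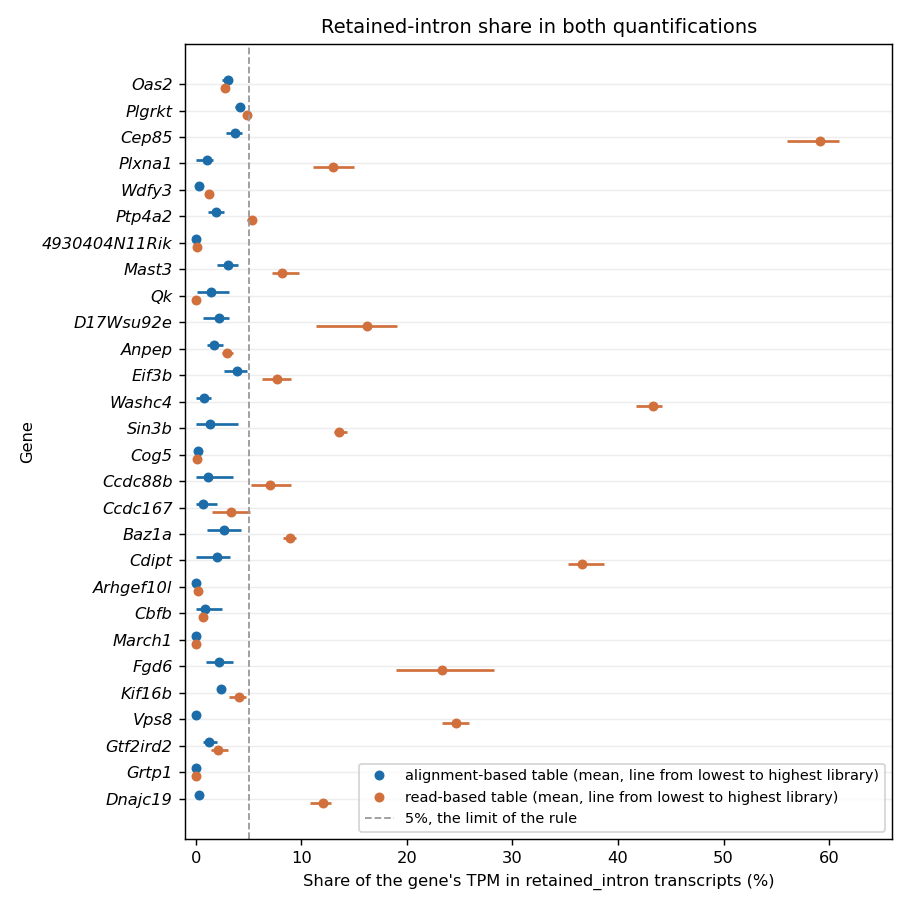
Share of each gene's TPM in retained_intron models (percent) in the alignment-based table (blue), which chose the genes, and in the read-based table (orange). Points are means of 3 libraries and lines run from the lowest to the highest library. Cep85, Washc4 and Cdipt lie furthest to the right in the read-based table.

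Because most TPM of these genes sat in other transcript types, the sequence those types hold was examined next. The median share of TPM in protein_coding transcripts was 89.8, 92.3 and 93.2%, against 38.1, 36.7 and 40.8% in the others. Part of this follows from the selection, since the shares of a gene sum to the whole. The highest transcript was protein_coding in 23 of 28 genes, processed_transcript (a spliced or unspliced RNA with no coding frame) in 3 and nonsense_mediated_decay (an RNA with an early stop) in 2. It was the principal coding transcript, the one the annotation ranks first, in 11 of 28, against 27.5% of the others. In 50.4% of the others the highest transcript was a retained_intron model, which the share limit all but prevents in the 28. The selection therefore bears on this contrast, and no difference is read from it. The same transcript was highest in all libraries in 20 of 28.

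Low alignment-based shares of the annotated type did not mean that other types lacked sequence inside introns of the principal coding transcript. Bases inside those introns are called intronic below, also where they are exons of another annotated coding transcript. In protein_coding transcripts all of them are, so they do not by themselves mark unspliced RNA. Transcripts of other types with at least 100 bases inside introns of the principal coding transcript took a median of 17.0, 20.2 and 19.5% of TPM in the 28 genes, against 6.42, 6.54 and 6.31% in the others. They took over 50% in every library in 8 of 28 genes, and in 3.58% of the others. Both contrasts follow in part from the selection, since the whole of a gene includes its retained_intron TPM. The 28 genes have little of it, which leaves more for other types. Shares of the TPM outside retained_intron models were not computed, so no difference is read from these contrasts. The 100-base limit was chosen after values were seen. With 50 or 200 bases the median over the 28 genes, averaged over libraries, went from 18.9% to 27.4 or 8.38%. Without replicate 3 it was 18.6%.

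Few of these transcripts held a whole coding intron. Among transcripts of other types with 100 or more such bases and at least 10% of their gene's TPM, 23 in 15 genes, 3 held a whole coding intron: Dnajc19-203, Sin3b-203 and Plgrkt-210. In type, 16 of the 23 were protein_coding, 5 processed_transcript and 2 nonsense_mediated_decay. Cep85-207, a processed_transcript with 646 intronic bases, took 91.8, 90.4 and 89.7% of the Cep85 signal, while its coding transcript Cep85-201 was at 5.51, 5.77 and 6.3 TPM. Kif16b-203 has 967 intronic bases and took 73.6, 70.9 and 71.9%. Gtf2ird2-202, of the nonsense_mediated_decay type, has 150 and took 68.5, 62.5 and 62.6%.

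In March1, transcripts with 100 or more intronic bases made up 99.08, 98.97 and 100% of TPM, and all were coding. The principal coding transcript of the gene, March1-205, was at only 0.26, 0.3 and 0 TPM, so the share depends on which transcript is the reference. Qk-201, with 5221 intronic bases, took 44.0, 44.6 and 39.4% of the Qk signal. Cog5-202, with 3278, took 39.9, 36.6 and 35.4%. Both are genes whose retained_intron models hold no base outside coding exons. Plxna1, Anpep, Eif3b, Washc4, Ccdc88b, Cdipt, Fgd6 and 4930404N11Rik had none of their TPM in such transcripts in any library.

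**Figure D4:**
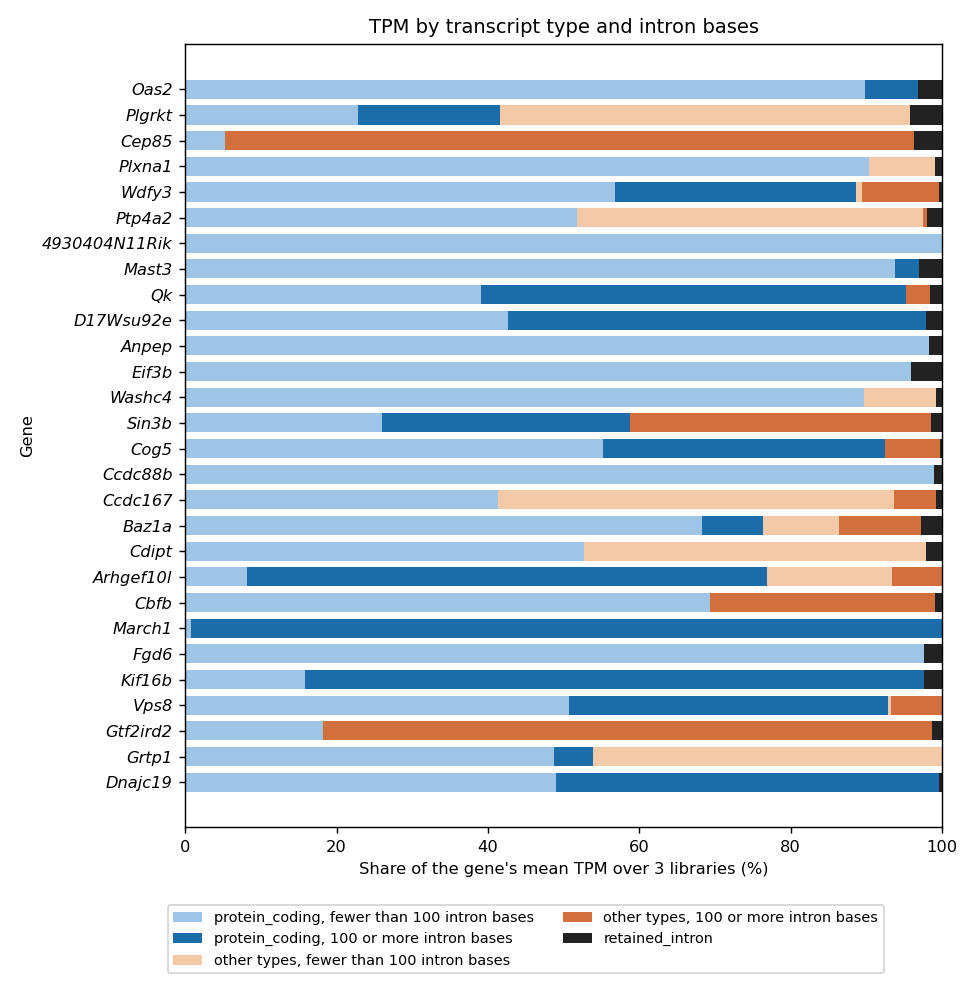
Share of each gene's mean TPM over 3 libraries (percent) by transcript type, with types other than retained_intron split at 100 bases inside introns of the principal coding transcript. Black is retained_intron. In Cep85, March1, Kif16b and Gtf2ird2 the darker colours fill most of the bar.

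Differences between libraries were then compared with those of other genes. In TMM-normalized CPM, which scales libraries by the bulk of their genes, the median log2 ratio of the 28 genes was -0.03 for replicate 2 over 1, -0.16 for 3 over 1 and -0.06 for 3 over 2. For the other eligible genes it was -0.07, -0.07 and -0.01. Replicate 3 was higher than replicate 1 in 10 of 28 genes and in 36.9% of the others. Scaling by library totals alone turned the ratio of 3 over 2 to 0.07, where the median of all genes moved from 0.006 to 0.133. Replicate 3 is also the library with the stromal markers, whose part in the ratios was not tested. With 1 library on each side these ratios have no test.

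With edgeR's quasi-likelihood fit, each gene's spread over the libraries was tested against the trend of genes of like abundance. Over all genes tested, 0 of 14839 (0%) passed an adjusted p of 0.05, and 747 had an unadjusted p under 0.05. With edgeR's prior fitted robustly, 24 genes (0.162%) passed and 862 had an unadjusted p under 0.05. None of the 28 was in any of these counts. The minimum of 20 TPM in each library limits the spread of the chosen genes, and with so few calls over all genes the absence of calls among the 28 does not set them apart, so this is a description only.

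Across 17 lists of macrophage and housekeeping functions, 5 of 642 eligible genes were among the 28. This share of 0.779% is near the 1.1% over all eligible genes, so the counts say nothing particular about a list. These were Oas2 of 45 eligible interferon-stimulated genes, Plxna1 of 38 surface receptors, Eif3b of 34 translation factors, March1 of 47 proteasome and ubiquitin genes and Qk of 88 splicing factors. The other lists held none. Those of membrane traffic and chromatin regulators do not include the genes placed under such roles above. Median shares of the interferon-stimulated list were 49.1, 56.1 and 53.2%, and of the splicing list 60.4, 63.2 and 60.3%. The highest share outside the 28 was in Ms4a6b for the interferon list, at 94.0, 95.1 and 92.1%, and in Thoc1, a subunit of the mRNA export complex THO, for the splicing list, at 92.7, 93.5 and 94.0%. Qars led the translation factors at 87.3, 86.1 and 80.9%, and the immunoproteasome gene Psmb8 the ubiquitin list at 96.4, 95.0 and 91.3%.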

How the data were processed

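Chromatin-fraction RNA of 3 libraries in 1 group was analysed from 3 tables per library. Per the file headers and the README files, the gene table and the alignment-based transcript table were made by the authors from transcriptome alignments on mm10 with GENCODE M21, and the read-based table directly from sequencing reads. No source used here gives the tools or the strand setting. Expected counts (estimated, not normalized) and TPM were deposited by the authors, and posterior mean TPM stands beside them. Effective lengths are the deposited values. Rows naming no gene held 1.31, 0.476 and 0.24% of expected counts and were left out.

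Shares, annotated bases and sequences were computed in Python 3.11.15 with pandas 2.3.3. Expected counts were rounded for edgeR 4.0.16 (filterByExpr, TMM, intercept only, Benjamini-Hochberg). CPM ratios had 0.1 added before the log. No library was a duplicate of another (chi-square over its degrees of freedom 35.6 to 65.3 per pair). Depth allows 3 counts, 0.254, 0.174 and 0.154 CPM in replicates 1, 2 and 3, at a count of 0.

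The members and lists were chosen with earlier results of these data known. Named are the 10 highest members, the highest members of each list with its eligible non-member of highest share where a list holds a member, the 5 with the highest read-based share, most models or largest SD, and genes next to the limits. The others are named by role. Alternatives were other limits, the read-based table, other scaling and filters, and leaving out libraries.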

Additional observations from a re-analysis of the deposited data

How the results depend on the processing

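The count of 28 genes was 9 at a minimum of 50 TPM, 10 at a share of at most 2%, 60 at 10% and 191 with shares of expected counts, where short models weigh less. It was 41 at 10 TPM, 21 with the read-based share (12 of the 28 among them), 23 with posterior mean TPM and 28 with Rpl and Rps symbols kept. Leaving out a replicate, which can only add genes to this rule, gave 29 to 34. The median read-based share of 5.07% was 1.21% as a share of estimated counts and 4.93 to 5.14% with a replicate left out. The median level of 5.4 was 5.78 in the read-based table and 5.34 to 5.4 with a replicate left out. The median share in other transcripts with 100 or more intronic bases, 18.9%, was 27.43% at 50 and 8.38% at 200 bases, and 18.23 to 19.85% with a replicate left out. All these medians kept the same 28 genes. With genes selected again by a share limit not asked of a replicate, the share was 18.62 to 26.39%, highest without replicate 3. The median of 111.5 retained-intron bases was 109 to 114 with genes selected again in this way. The median intron count of 11.5 was 14 for the longest coding transcript. With no scaling factors, the library ratio was -0.124 for replicate 2 over 1 and 0.068, the opposite sign, for 3 over 2. Genes more variable than the trend numbered 49 with no filter, 24 with edgeR's robust prior and 0 to 73 with a replicate left out (8 without replicate 1 and 73 without replicate 3), while none of the 28 was called in any of these. The robust and bias-adjusted fits, posterior means, base limits and base counts were added after seeing the data. Low counts in retained_intron models limit every share near 0. No paired analysis was possible because all libraries belong to 1 group.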
